A study of Mus musculus with 6 samples.

Results

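The 10 mouse Toll-like receptor genes Tlr1, Tlr2, Tlr3, Tlr4, Tlr5, Tlr6, Tlr7, Tlr8, Tlr9 and Tlr13 were followed in RNA sequencing of mouse skin, from 3 control (CON) and 3 imiquimod-treated (MOD) libraries. They were taken from the deposited table by gene name, and all 10 were found among its 57010 genes. Control skin carried the source label wild type and the treatment label Control. MOD mice received imiquimod, a small-molecule agonist of the Tlr7 protein, daily on the shaved back for 6 days. The amount is given as 62.5 mg, without saying whether this is the mass of the drug or of a cream that holds it. Mice are described as having received atropine and zoledronic acid injections at the end of the experiment, with no distinction between groups. The sources used here give no strain, sex or age, and no vehicle for the controls. Whether each library came from its own animal is not stated, so the p-values measure only how far these libraries spread, and part of that may be technical.

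Toll-like receptors are membrane proteins of innate immunity with an outer region of leucine-rich repeats and an inner TIR domain, and the authors' deposited annotation gave both to all 10. Tlr1, Tlr2, Tlr4, Tlr5 and Tlr6 act mainly at the cell surface, where they meet lipoproteins, lipopolysaccharide and flagellin. Tlr3, Tlr7, Tlr8, Tlr9 and Tlr13 act in endosomes, where they meet nucleic acids. Macrophages, dendritic cells and, for several receptors, keratinocytes of the skin carry them, and signalling runs through the adaptors MyD88 and TRIF to NF-kappaB and interferon regulatory factors.

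The upstream sequences of 4 receptor genes are shown because they cover the range of differences described below, from Tlr13 and Tlr2, which rose, to Tlr8, just outside the threshold, and Tlr3, which was not called. Each run is the 250 bases before the RefSeq start of the gene on GRCm38.p6, written 5′ to 3′ on the gene's strand. Capitals mark matches, on either strand, to an ETS core (GAGGAA), an IRF half-site pair (GAAANNGAA), a C/EBP-type site (TTNNGNAA) or an AP-1 site (TGANTCA). They also mark an NF-kappaB site (GGGRNNYYCC, where R is A or G and Y is C or T), searched on the written strand only. Overlapping matches run together.
Tlr13, chrX:106143025-106143274, plus strand: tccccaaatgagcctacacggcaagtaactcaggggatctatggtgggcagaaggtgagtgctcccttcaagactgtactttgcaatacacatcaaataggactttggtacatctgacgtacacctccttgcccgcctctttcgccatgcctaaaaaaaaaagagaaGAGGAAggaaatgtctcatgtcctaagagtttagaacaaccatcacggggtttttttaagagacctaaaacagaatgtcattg
Tlr8, chrX:167264330-167264579, minus strand: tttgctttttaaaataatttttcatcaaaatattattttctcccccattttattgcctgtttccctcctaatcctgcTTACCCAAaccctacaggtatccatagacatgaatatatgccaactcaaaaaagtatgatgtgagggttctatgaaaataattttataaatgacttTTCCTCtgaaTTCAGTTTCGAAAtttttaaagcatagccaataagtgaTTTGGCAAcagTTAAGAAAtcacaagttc
Tlr2, chr3:83841609-83841858, minus strand: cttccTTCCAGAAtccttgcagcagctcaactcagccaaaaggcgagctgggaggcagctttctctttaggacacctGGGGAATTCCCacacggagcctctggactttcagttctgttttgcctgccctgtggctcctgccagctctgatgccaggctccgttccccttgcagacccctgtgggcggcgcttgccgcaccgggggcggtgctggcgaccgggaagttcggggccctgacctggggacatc
Tlr3, chr8:45410381-45410630, minus strand: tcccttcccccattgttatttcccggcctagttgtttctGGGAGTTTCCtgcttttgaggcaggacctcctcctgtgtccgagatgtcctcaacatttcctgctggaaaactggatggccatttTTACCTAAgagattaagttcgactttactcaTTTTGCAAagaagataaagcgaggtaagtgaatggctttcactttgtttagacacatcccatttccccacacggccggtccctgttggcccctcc
The Tlr13 window held a single ETS core. The Tlr8 window held an ETS core, an IRF half-site pair and 4 C/EBP-type matches. Tlr2 and Tlr3 each held an NF-kappaB match and at least 1 C/EBP-type match.

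RefSeq gave 10 promoters for 8 of the receptor genes, Tlr1 and Tlr6 having 2 each, and Tlr4 and Tlr7 were not matched. The ETS core was in 4 of these 10 windows (Tlr1, Tlr8, Tlr9 and Tlr13), against 23.3% of 32851 mouse promoter windows of the same length. The IRF half-site pair was in 2 (Tlr6 and Tlr8), against 7.13%. The C/EBP-type site was in 4 (Tlr2, Tlr3, Tlr6 and Tlr8), against 36.8%. The NF-kappaB site, searched on the gene's strand only, was in 2 (Tlr2 and Tlr3), against 5.0%. The AP-1 site was in 1 (Tlr9), against 6.75%. These matches describe letters in a window and do not show that a factor binds there.

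Values are TPM, a transcript level scaled by gene length and to a fixed total per library. The unit carries no read number, so the depth of the libraries is unknown. Between 23311 and 24647 genes were above 0 in a library. The keratinocyte genes Krt5 and Krt14 lay between 1132 and 3057 TPM in all 6 libraries, which fits the skin label. Xist, a transcript of female cells, ran from 78.8 to 114 TPM across CON and from 58.1 to 60.6 TPM across MOD. Ddx3y, a gene of the Y chromosome, was listed at 0 in all 6 libraries, the pattern of female tissue. The controls were not alike. H2-Ea, an MHC class II gene, had 194 TPM in CON 1 and 162 in CON 3, whereas CON 2 and the MOD libraries all listed it at 0. A second fit therefore carried a term for this split. Since no MOD library lies on the side of CON 1 and CON 3, that fit in effect sets MOD against CON 2. The values of that fit are given beside many of the results that it changes. All 6 hair follicle markers, 5 keratins and Lhx2, fell, with sums between 2138 and 10870 TPM across CON but only 6.67 and 13.2 TPM across MOD, and summed skeletal muscle markers ran from 2502 to 8513 TPM across CON and from 16840 to 25980 TPM across MOD. The part of these shifts in the receptor values was not tested.

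In MOD, 5 of the 10 receptor genes rose, namely Tlr7, Tlr9 and Tlr13 of the endosomal receptors and Tlr1 and Tlr2 of the surface receptors, and none fell (limma, adjusted p below 0.05). Across the 15323 genes tested, 12.5% were called higher and 36.1% lower. The median log2 difference of the 10 genes was 0.96, against -0.31 for all tested genes. The same 5 genes were those in which every MOD library lay above every CON library, as did 15.5% of tested genes. With the H2-Ea term 2 of the 10 remained called higher, Tlr1 and Tlr13, against 4.35% of tested genes. With median-of-ratios scaling, which moves the median of all tested genes to 0.00, 8 of the 10 were called higher, against 20.2% of tested genes higher and 18.7% lower. The 2 not called under that scaling were Tlr3 and Tlr6.

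**Figure D1:**
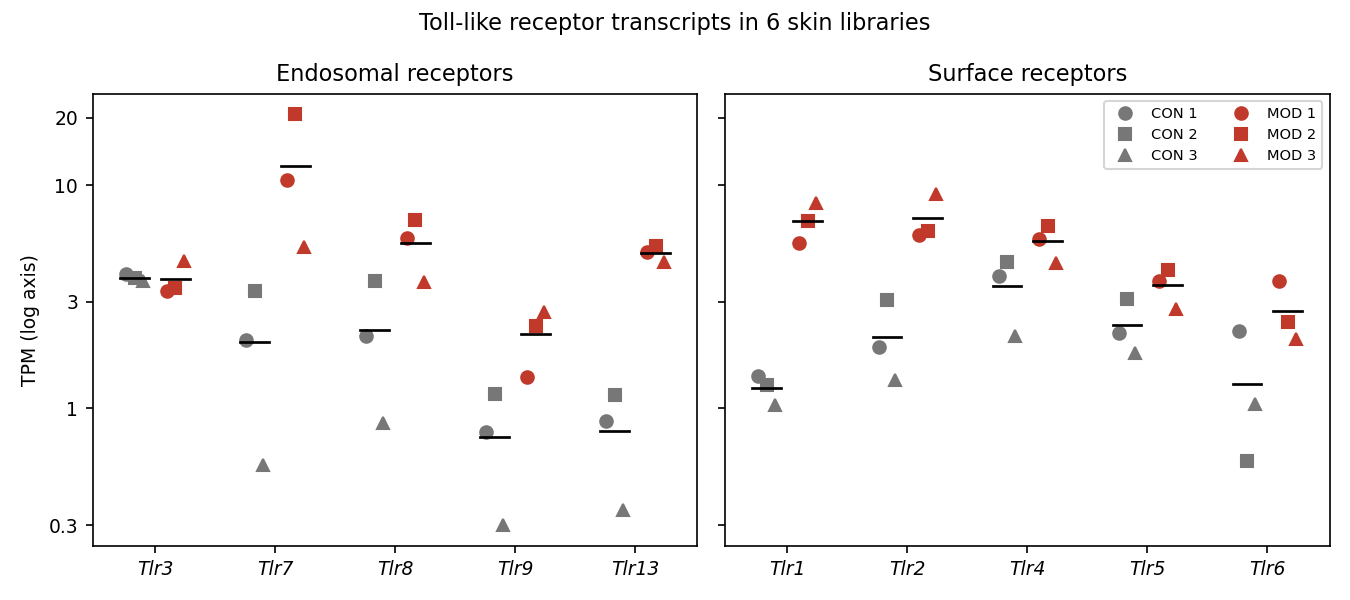
TPM of each receptor gene on a log axis in the 6 libraries, with endosomal receptors on the left and surface receptors on the right. Grey symbols are CON and red symbols MOD, a symbol shape marks the library number, which was not used to pair libraries, and the black bar is the group mean. Tlr1, Tlr2, Tlr7, Tlr9 and Tlr13 show no overlap between groups, and the groups overlap for Tlr3.

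All 10 genes passed the filter on low values, at least 1 TPM in at least 3 libraries, but not all through both groups. Tlr9 and Tlr13 reached 1 TPM in 1 control library each, so both met the filter through MOD, which largely fixed their direction. Tlr6, Tlr7 and Tlr8 reached it in 2 control libraries each, and the other 5 genes reached it in all 3.

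Tlr7, the receptor for single-stranded RNA and the target of imiquimod, stood at 2.03, 3.36 and 0.56 TPM in CON 1, CON 2 and CON 3. It stood at 10.6, 20.8 and 5.30 TPM in MOD 1, MOD 2 and MOD 3. The lowest MOD library lay above the highest control, and MOD 2 was far above the other MOD libraries. Mean TPM was 1.98 ± 1.40 in CON and 12.2 ± 7.90 in MOD (SD, n = 3 per group), a 6.16-fold ratio of means. The difference was 2.09 on the log2(TPM + 1) scale (SE 0.53, 95% interval 0.82 to 3.36, limma adjusted p = 0.018). With the H2-Ea term it was 1.42 and no longer called (limma adjusted p = 0.17), and the call was also lost without MOD 1 (limma adjusted p = 0.057) and without any filter (limma adjusted p = 0.053). It held in 14 of 17 alternatives, over which limma adjusted p ran from 0.0086 to 0.17. In bulk skin, more cells carrying a transcript and more of it per cell cannot be told apart, here and for each receptor that follows.

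Tlr8, the neighbour of Tlr7 on the X chromosome and its close relative, is known in mouse for a weaker response to the ligands of human TLR8. Its values were 2.12, 3.74 and 0.86 TPM in CON 1, CON 2 and CON 3 and 5.79, 6.98 and 3.68 TPM in MOD 1, MOD 2 and MOD 3. CON 3 was lowest of all, and MOD 3 fell just below CON 2, so the groups overlapped. Mean TPM was 2.24 ± 1.44 in CON and 5.48 ± 1.67 in MOD (SD, n = 3 per group), and the log2 difference of 1.07 (SE 0.37, 95% interval 0.18 to 1.95) missed the threshold (limma adjusted p = 0.051). Under the H2-Ea term the difference was 0.42. Tlr8 was called in 6 of 17 alternatives, with limma adjusted p from 0.015 to 0.47. The ratio of Tlr7 to Tlr8 TPM was 0.958, 0.898 and 0.651 in the 3 controls and 1.82, 2.98 and 1.44 in the 3 MOD libraries. Tlr7 was thus the lower gene of the pair in each control and the higher in each MOD library.

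Tlr9, which binds DNA with unmethylated CpG, was the gene with the lowest mean in both groups. It stood at 0.78, 1.16 and 0.30 TPM in CON 1, CON 2 and CON 3 and at 1.38, 2.34 and 2.71 TPM in MOD 1, MOD 2 and MOD 3. The groups did not overlap, and the gap between CON 2 and MOD 1 was small. Mean TPM was 0.747 ± 0.431 in CON and 2.14 ± 0.686 in MOD (SD, n = 3 per group), with a log2 difference of 0.85 (SE 0.26, 95% interval 0.22 to 1.48, limma adjusted p = 0.035). The call held in 9 of 17 alternatives, with limma adjusted p from 0.016 to 0.30. Among others, it was lost with the H2-Ea term (0.52, limma adjusted p = 0.30) and on leaving out CON 1, CON 3, MOD 2 or MOD 3 (limma adjusted p = 0.073, 0.082, 0.098 and 0.097). It was also lost without any filter and with a filter on the mean (limma adjusted p = 0.087 and 0.051).

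Tlr13, which recognises bacterial ribosomal RNA in mice, also lies on the X chromosome. It stood at 0.88, 1.15 and 0.35 TPM in CON 1, CON 2 and CON 3 and at 5.04, 5.32 and 4.55 TPM in MOD 1, MOD 2 and MOD 3. The MOD libraries were close together and all far above the controls. Mean TPM was 0.793 ± 0.407 in CON and 4.97 ± 0.390 in MOD (SD, n = 3 per group), a 6.26-fold ratio of means and 4.32 times CON 2 alone. The log2 difference was 1.76 (SE 0.21, 95% interval 1.25 to 2.26, limma adjusted p = 0.0019). With the H2-Ea term it was 1.47 and still called (limma adjusted p = 0.023), and all 17 alternatives called it, with limma adjusted p from 0.0016 to 0.023.

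Tlr3, the receptor for double-stranded RNA, which keratinocytes are known to carry, had the highest mean of the family in CON. It stood at 3.99, 3.85 and 3.73 TPM in CON 1, CON 2 and CON 3 and at 3.34, 3.47 and 4.56 TPM in MOD 1, MOD 2 and MOD 3. The groups overlapped, and the controls were closer together than for any other receptor gene. The log2 difference was -0.03 (SE 0.16, 95% interval -0.41 to 0.35, limma adjusted p = 0.89). None of 17 alternatives called it (limma adjusted p 0.21 to 0.97), and its sign turned with the scaling, to 0.25 under median-of-ratios scaling.

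Among the surface receptors, Tlr1, which pairs with Tlr2 to bind triacylated lipopeptides, stood at 1.39, 1.27 and 1.04 TPM in CON 1, CON 2 and CON 3. In MOD 1, MOD 2 and MOD 3 it stood at 5.51, 6.89 and 8.30 TPM. The controls were within a narrow range and every MOD library was several times higher. Mean TPM was 1.23 ± 0.178 in CON and 6.90 ± 1.40 in MOD (SD, n = 3 per group), a 5.59-fold ratio of means. The log2 difference of 1.81 (SE 0.19, 95% interval 1.37 to 2.25, limma adjusted p = 0.0013) was called in all 17 alternatives, with limma adjusted p from 0.001 to 0.018. With the H2-Ea term it was 1.78.

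Tlr2, the shared partner of Tlr1 and Tlr6, stood at 1.88, 3.06 and 1.34 TPM in CON 1, CON 2 and CON 3 and at 6.01, 6.21 and 9.14 TPM in MOD 1, MOD 2 and MOD 3. All MOD libraries were above CON 2, the highest control. Mean TPM was 2.09 ± 0.880 in CON and 7.12 ± 1.75 in MOD (SD, n = 3 per group), with a log2 difference of 1.41 (SE 0.26, 95% interval 0.79 to 2.02, limma adjusted p = 0.006). The call held in 16 of 17 alternatives and was lost with the H2-Ea term (0.98, limma adjusted p = 0.063, the highest of a range from 0.0029).

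Tlr6, which pairs with Tlr2 to bind diacylated lipopeptides, stood at 2.22, 0.58 and 1.05 TPM in CON 1, CON 2 and CON 3 and at 3.74, 2.44 and 2.05 TPM in MOD 1, MOD 2 and MOD 3. CON 1 lay above MOD 3, so the groups overlapped. The log2 difference of 0.75 (SE 0.31, 95% interval 0.02 to 1.48) was not called (limma adjusted p = 0.082). The H2-Ea term gave 1.22, also not called (limma adjusted p = 0.063). Without CON 1 it was 1.03 and called (limma adjusted p = 0.030, in a range from 0.030 to 0.23 over 17 alternatives).

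Tlr4, the lipopolysaccharide receptor, stood at 3.92, 4.55 and 2.11 TPM in CON 1, CON 2 and CON 3 and at 5.75, 6.58 and 4.50 TPM in MOD 1, MOD 2 and MOD 3. Tlr5, the flagellin receptor, stood at 2.18, 3.10 and 1.78 TPM in CON 1, CON 2 and CON 3 and at 3.72, 4.19 and 2.80 TPM in MOD 1, MOD 2 and MOD 3. For both genes MOD 3 lay below CON 2, and the groups overlapped. The log2 difference was 0.58 for Tlr4 (95% interval -0.04 to 1.19, limma adjusted p = 0.10, 0.033 to 0.62 over 17 alternatives). It was 0.45 for Tlr5 (95% interval -0.05 to 0.96, limma adjusted p = 0.12, 0.032 to 0.71 over 17 alternatives). Under the H2-Ea term these were 0.24 for Tlr4 and 0.14 for Tlr5. Neither was called, and both were called under median-of-ratios scaling, with differences of 0.86 and 0.72.

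**Figure D2:**
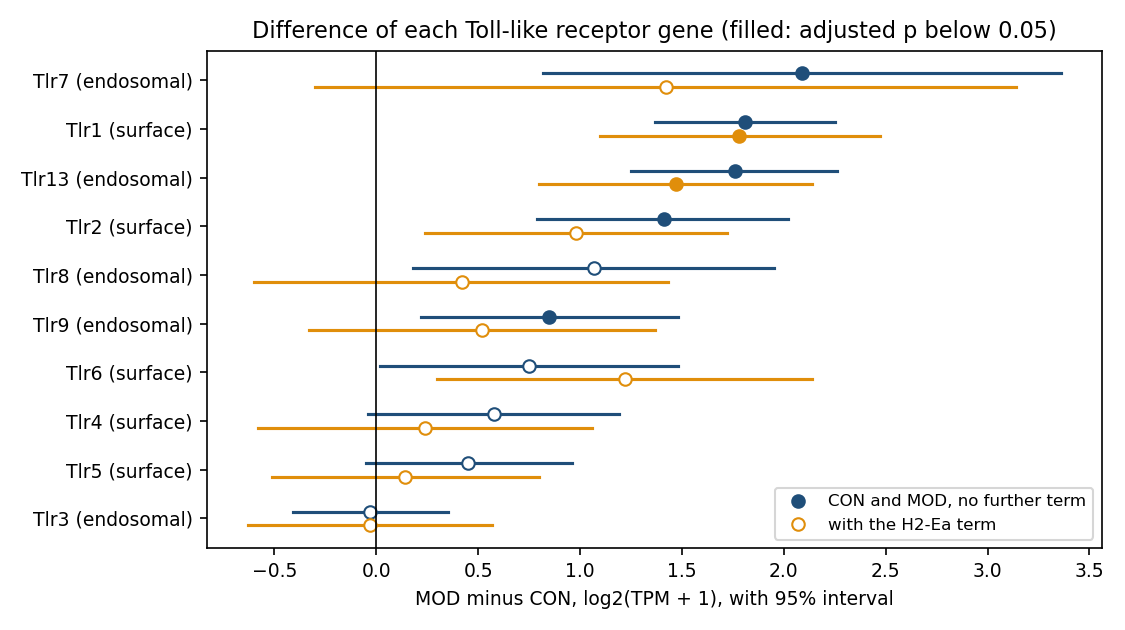
Log2(TPM + 1) difference, MOD minus CON, of each receptor gene with its 95% interval, in the fit of the 2 groups alone (blue) and with the H2-Ea term (orange). Filled points are called higher at limma adjusted p below 0.05, which holds for 5 genes without the term and for Tlr1 and Tlr13 with it.

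Endosomal and surface receptors were next compared as groups. Their median log2 differences were 1.07 for the 5 endosomal genes and 0.75 for the 5 surface genes, and with the H2-Ea term they were 0.52 and 0.98, in the reverse order. In each library the mean log2(TPM + 1) of the surface genes was subtracted from that of the endosomal genes. This gave -0.23, 0.10 and -0.36 in CON 1, CON 2 and CON 3 and -0.10, 0.22 and -0.17 in MOD 1, MOD 2 and MOD 3. The groups overlapped, and the MOD mean exceeded the CON mean by 0.15, less than the pooled SD of 0.22 between replicates. With the H2-Ea term the difference was -0.11, and with a pseudocount of 0.1 it was 0.31. In the main setting no shift of either class against the other was therefore seen beyond the replicate spread. That spread was not computed for the other settings.

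The summed TPM of the 10 genes was 21.4, 25.8 and 13.1 in CON 1, CON 2 and CON 3 and 50.8, 65.3 and 47.6 in MOD 1, MOD 2 and MOD 3. The sum was higher in each MOD library, with a 2.71-fold ratio of means. Endosomal genes held 45.8, 51.4 and 44.2% of it in the controls and 51.3, 59.7 and 43.7% in MOD, again with overlap.

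The order of the levels also differed between the groups. In CON the order by mean TPM was Tlr3, Tlr4, Tlr5, Tlr8, Tlr2, Tlr7, Tlr6, Tlr1, Tlr13 and Tlr9, from 3.86 ± 0.130 to 0.747 ± 0.431 TPM (SD, n = 3). In MOD it was Tlr7, Tlr2, Tlr1, Tlr4, Tlr8, Tlr13, Tlr3, Tlr5, Tlr6 and Tlr9, from 12.2 ± 7.90 to 2.14 ± 0.686 TPM (SD, n = 3). Each gene's range overlapped that of its neighbour in the order, in both groups, so no adjacent ranks were separated. Tlr3 held 18.7, 14.9 and 28.4% of the summed TPM in the controls and 6.6, 5.3 and 9.6% in MOD. Tlr7 held 9.5, 13.0 and 4.3% in the controls and 20.8, 31.9 and 11.1% in MOD, where the groups overlapped. Tlr4 and Tlr5 also held a smaller share in each MOD library than in any control, and Tlr1 and Tlr13 a larger one.

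**Figure D3:**
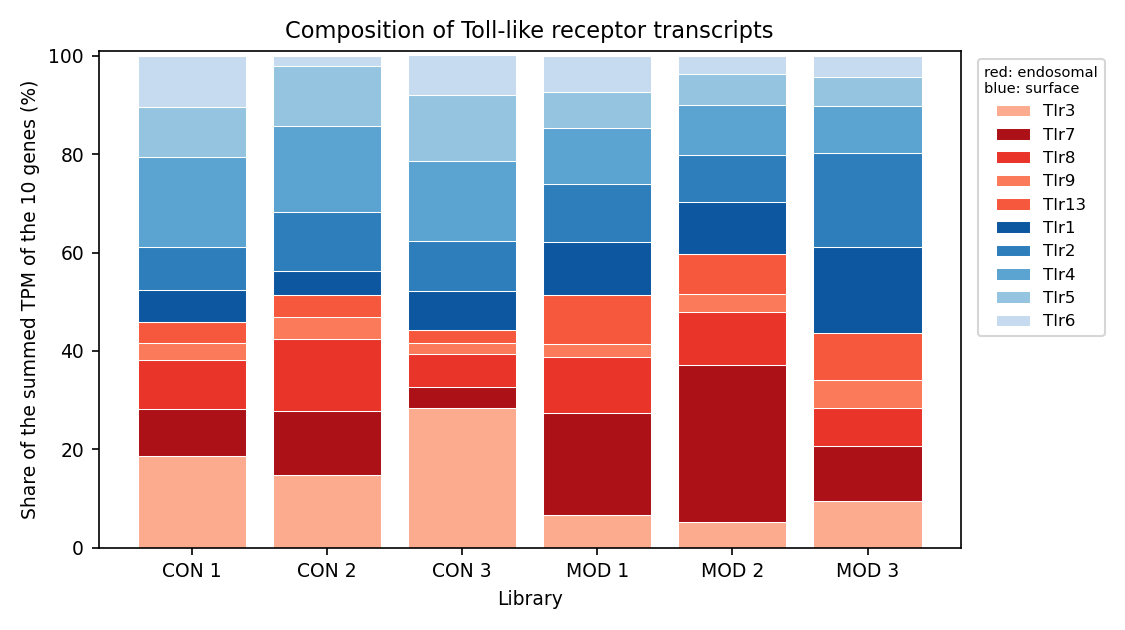
Share of each receptor gene in the summed TPM of the 10 genes (%), 1 bar per library, with endosomal receptors in red and surface receptors in blue. The endosomal share lies between 43.7 and 59.7% in all libraries. The share of Tlr3 is at least 14.9% in CON and at most 9.6% in MOD. Its mean TPM was 3.86 in CON and 3.79 in MOD, while the summed TPM rose 2.71-fold.

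The receptors also varied together among the libraries of a group. CON 3 was the lowest control for 9 of the 10 genes, all but Tlr6, and CON 2 the highest for 7. A low CON 3 was not particular to the receptors. CON 3 was also the lowest control for most macrophage, adipocyte, fibroblast, mast cell and hair follicle markers, and the highest for the skeletal muscle markers. The share over all genes was not counted. Tlr4, Tlr5, Tlr7, Tlr8 and Tlr13 shared a single order in both groups, with CON 3 below CON 1 below CON 2 and MOD 3 below MOD 1 below MOD 2. Tlr1, Tlr2, Tlr3 and Tlr9 were highest in MOD 3, and Tlr6 was highest in CON 1 and MOD 1. Of the 12 macrophage and monocyte markers, 4 (Cd68, Mrc1, Cd163 and Lyz2) had the order of the Tlr7 group, and none of the 12 neutrophil markers did. Among the other marker lists this order was found for 3 of 5 adipocyte markers and for 1 plasmacytoid dendritic cell, 1 mast cell and 1 fibroblast marker. With 3 libraries in a group, a shared order is a description of these libraries.

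**Figure D4:**
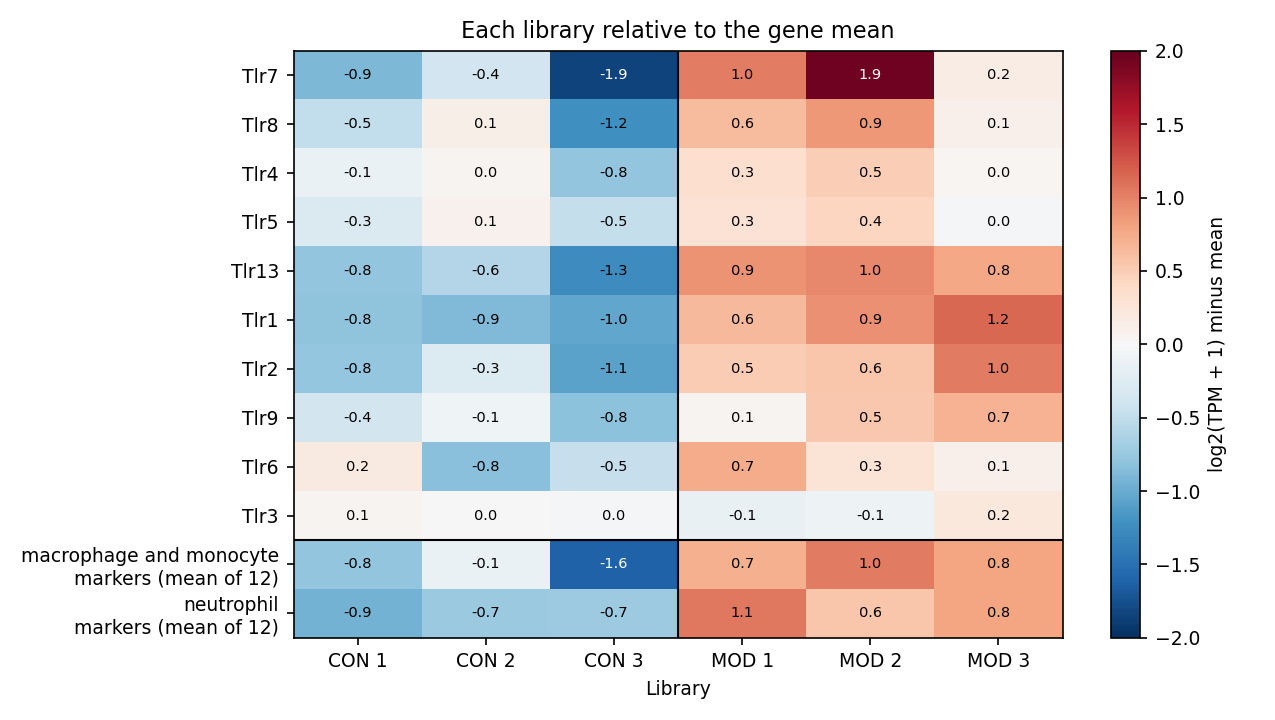
Log2(TPM + 1) of each receptor gene in each library minus the gene's mean over the 6 libraries, with the mean of 12 macrophage and monocyte markers and of 12 neutrophil markers below. Red is above and blue below the mean; Tlr7, Tlr8, Tlr4, Tlr5 and Tlr13 (top) peak in MOD 2 and are lowest in CON 3, as the macrophage markers are.

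Most macrophage and monocyte markers also rose in MOD, against 12.5% of all tested genes, as did most endothelial and skeletal muscle markers. Of the 12, 9 rose and none fell, with a median log2 difference of 1.67, and 2 were called higher with the H2-Ea term. Their summed TPM was 778, 1436 and 396 in CON 1, CON 2 and CON 3 and 3640, 4203 and 2951 in MOD 1, MOD 2 and MOD 3. No marker sum in MOD was within the range of the controls. Lyz2, lysozyme of myeloid cells, gave the largest part, which ran from 217 to 813 TPM across CON and from 1644 to 2593 TPM across MOD. The complement genes C1qa and C1qb ran from 37.8 to 198 TPM across CON and from 378 to 527 TPM across MOD.

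Dividing each receptor by the geometric mean of the 12 macrophage markers gave levels per 100 TPM of marker, a measure chosen after the values were seen. Tlr13 stood at 3.54, 2.87 and 2.56 in CON 1, CON 2 and CON 3 and at 6.97, 5.86 and 5.98 in MOD 1, MOD 2 and MOD 3. Tlr7 stood at 8.16, 8.39 and 4.10 in the controls and at 14.6, 22.9 and 6.96 in MOD. Tlr13 therefore remained higher in each MOD library, while the groups overlapped for Tlr7. Tlr3, Tlr4 and Tlr5 were lower in each MOD library, and the remaining 5 receptors overlapped. The divisor itself rose 3.04-fold between the group means, so a gene with unchanged TPM, such as Tlr3, comes out lower by the division alone. The division was not made for all genes, so no share over all genes stands beside these counts. Division by Csf1r alone gave the same 1 higher and 3 lower genes, and division by the marker sum added Tlr8 to the lower ones. The part of a change in macrophage number in the receptor values was not tested beyond these ratios.

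Neutrophil markers rose in 6 of 7 tested genes of a list of 12. Of these 6, Cxcr2, Mmp8 and Retnlg reached 1 TPM in no control, so they met the filter through MOD alone, and without any 1 MOD library the count was 3. The list summed to between 34.7 and 74.6 TPM across CON and between 227 and 1200 TPM across MOD. In MOD most of this sum was Lcn2, a gene that keratinocytes also express, with 148 to 1068 TPM across MOD. Csf3r, the G-CSF receptor, ran from 1.13 to 1.43 TPM across CON and from 11.2 to 14.6 TPM across MOD. The defining gene Ly6g was at most 1.09 TPM in any library, and the sum was highest in MOD 1, where Tlr1, Tlr2 and Tlr9 were lowest of the MOD libraries. Of 6 B cell genes 1 entered the test, Cd79b, which ran from 0.25 to 0.59 TPM across CON and from 3.2 to 7.65 TPM across MOD and was called higher (limma adjusted p = 0.0025), having met the filter through MOD alone. The B cell gene Ms4a1 did not exceed 0.07 TPM in any library. Siglech, of plasmacytoid dendritic cells, which in mice carry Tlr7 and Tlr9, ran from 0.61 to 2.71 TPM across CON and from 0.89 to 0.95 TPM across MOD and did not enter the test. Of 8 genes on the plasmacytoid list 4 were tested, of which Cox6a2 (log2 difference 2.56) and Clec10a (1.69), also genes of muscle and of other myeloid cells, rose and Ly6d (-1.20), also a keratinocyte gene, fell, and with the H2-Ea term only the fall of Ly6d was called. Among markers of other cells, 5 of 6 tested endothelial genes rose, 3 of 6 T cell and 3 of 6 mast cell genes rose with 1 of each lower, a fall lost in both lists with the H2-Ea term, and 1 of 5 dendritic cell genes rose with 1 lower. With the H2-Ea term the median log2 difference went from 1.61 to 1.55 for neutrophil and from 1.53 to 1.38 for endothelial genes. It went from 0.66 to 0.64 for T cell, from 1.22 to 0.54 for mast cell and from 0.37 to 0.1 for dendritic cell genes. In each of these lists some or all of the rises were no longer called under that term. Il1r2 of the neutrophil list went from -0.19 to -0.91. The part of these cells in the receptor values was not tested.

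Tlr1 and Tlr6, which lie side by side, share sequence. In GENCODE M21 transcripts, 454 of the 2976 stretches of 50 bases in Tlr1 (15.3%) also occur in Tlr6, and 456 of 3628 in Tlr6 (12.6%) occur elsewhere, chiefly in Tlr1, so the split of reads between them is uncertain. Their summed TPM was 3.61, 1.85 and 2.09 in CON 1, CON 2 and CON 3 and 9.25, 9.33 and 10.4 in MOD 1, MOD 2 and MOD 3. The sum showed no overlap and a 3.83-fold ratio of means. Because TPM divides by gene length, 3025 bases for Tlr1 and 2603 for Tlr6 as deposited, the sum also depends somewhat on the split. Tlr3 shares 68 of 4358 stretches (1.56%) with its antisense gene Gm45542, which was listed at 0 in all libraries. The other 7 genes share none with another gene.

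For each receptor gene that rose, the 3 genes with the most similar pattern over the 6 libraries were taken, by Pearson r of log2(TPM + 1) among the 11508 or 11509 other genes whose mean reached 5 TPM in either group. The 2 groups themselves drive such values, and between 107 and 395 genes reached an r of 0.95 with a given receptor, so the ranks are a description only. Closest to Tlr7 were the prolidase gene Pepd (0.994), the granzyme B inhibitor gene Serpinb9 (0.994) and Dram2 (0.993). Closest to Tlr13 were Pgap6 (0.998), Mup7 (0.997), one of a family of near-identical copies, and Ccn3 (0.997). Closest to Tlr9 were Laptm4a (0.998), Swap70 (0.992) and Rab43 (0.991). Closest to Tlr1 were Stard3nl (0.998), the pericyte gene Rgs5 (0.995) and the myeloid receptor gene Sirpb1a (0.995). Closest to Tlr2 were the noncoding RNA Rian (0.998), Bin2 (0.996) and the vessel growth factor gene Angpt2 (0.995). Tlr8, which was not called and is given outside this rule, lay closest to the macrophage genes F13a1 (0.998), Cd163 (0.997) and Folr2 (0.996).

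The genes around the receptors were read from 10 lists of 75 genes, of which 68 were tested, 20 rose and 13 fell. Across all tested genes 12.5% were called higher and 36.1% lower, shares that apply to each list below as well. The median log2 difference of the 68 genes was 0.26, against -0.31 for all tested genes. With the H2-Ea term 9 were higher and 6 lower, against 4.35% of all tested genes higher. Of 10 genes of endogenous ligands and alarmins, 5 rose and 3 fell. The largest rises were those of Saa3 (log2 difference 9.38) and of S100a8 and S100a9, the subunits of calprotectin, a ligand of Tlr4 (6.86 and 6.43). The matrix protein gene Tnc rose by 1.41 and the cathelicidin gene Camp by 0.91, while Hmgb1 (-0.89), Vcan (-0.76) and Hspd1 (-0.68) fell. Tnc lost its call under the H2-Ea term (1.25, limma adjusted p = 0.10), as did Hspd1 (-0.71, limma adjusted p = 0.064), and without MOD 1 the list had 3 genes higher. The 3 falls were not called under median-of-ratios scaling.

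Of the 6 surface co-receptors, 4 rose and none fell, with a median log2 difference of 1.46. Cd14, which hands lipopolysaccharide to Tlr4, stood at 7.25, 11.3 and 4.62 TPM in CON 1, CON 2 and CON 3 and at 71.8, 40.9 and 38.6 TPM in MOD 1, MOD 2 and MOD 3. The groups were well apart (log2 difference 2.58, SE 0.35, limma adjusted p = 0.0025), and Cd14 was the only member called with the H2-Ea term (2.01, limma adjusted p = 0.027). Ly96, the Tlr4 partner MD-2, rose by 1.37 on the log2 scale. The related pair Cd180 and Ly86 rose by 1.54 and 1.93. Tlr4 itself was not called, and the difference between it and its co-receptors was not tested.

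Among 7 genes for folding and trafficking of the receptors, 2 rose and 1 fell. Unc93b1, the chaperone that carries endosomal receptors out of the endoplasmic reticulum, stood at 23.5, 40.9 and 20.3 TPM in CON 1, CON 2 and CON 3. In MOD 1, MOD 2 and MOD 3 it stood at 105, 124 and 125 TPM. Each MOD library was well above CON 2, the highest control (log2 difference 2.08, SE 0.26, limma adjusted p = 0.002, 0.013 under the H2-Ea term). Slc15a3, an endolysosomal transporter, rose by 1.25 on the log2 scale (limma adjusted p = 0.018), a call lost with the H2-Ea term (0.72, limma adjusted p = 0.18), and without CON 1 the list had 1 gene higher. Cnpy4, a receptor chaperone, was at -0.83 (limma adjusted p = 0.012) and was called neither under median-of-ratios scaling nor with the H2-Ea term (limma adjusted p = 0.11). Without CON 3 the list had 2 genes lower.

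Of the 5 endosomal proteases, which cut nucleic-acid receptors into their active form, 3 rose and none fell. Cathepsin S (Ctss) was at 57.4, 123 and 27.2 TPM in CON 1, CON 2 and CON 3 and at 219, 296 and 229 TPM in MOD 1, MOD 2 and MOD 3, a log2 difference of 2.07 (limma adjusted p = 0.014). The H2-Ea term lowered it to 0.99, which was not called (limma adjusted p = 0.12). Its order among the libraries was that of the macrophage sum in the controls but not in MOD, where MOD 1 was lowest for Ctss and MOD 3 for the sum. Legumain (Lgmn) ran from 64.6 to 97.4 TPM across CON and from 184 to 215 TPM across MOD (1.35, limma adjusted p = 0.0022, 0.023 under the H2-Ea term). Ctsb rose by 0.67 on the log2 scale (limma adjusted p = 0.042), a call lost with the H2-Ea term (0.52, limma adjusted p = 0.26).

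Adaptors, kinases and ligases carry the signal onward. Of the 4 adaptors tested, Ticam2 rose by 0.84 and Tirap fell by 0.53 on the log2 scale, and neither was called with the H2-Ea term or without any 1 MOD library. Myd88 ran from 16.8 to 28.4 TPM across CON and from 27.1 to 32.4 TPM across MOD and was not called (limma adjusted p = 0.080). Of 13 kinases and ubiquitin ligases none rose and 6 fell, against 36.1% of all tested genes called lower. The median log2 difference of the 13 was -0.34, close to the -0.31 of all tested genes. Under median-of-ratios scaling 2 of the 13 were higher and 1 lower, so that direction followed the scaling. The count of 6 lower was 3 without CON 1, 3 without MOD 1, 2 without MOD 2 and 2 with the H2-Ea term. The gene lower under both was Traf3, a ubiquitin ligase of the interferon branch, which ran from 10.1 to 10.9 TPM across CON and from 4.79 to 5.22 TPM across MOD (log2 difference -0.93, limma adjusted p = 0.0028). Map3k7 (-0.82) and Traf6 (-0.74) were also called lower, but not under median-of-ratios scaling.

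Among 7 transcription factors, Irf8, a factor of myeloid cells, rose, with controls between 6.65 and 9.5 TPM and MOD libraries between 13.1 and 20.8 TPM (log2 difference 1.02, limma adjusted p = 0.0099). Irf5, which acts below Myd88, rose by 0.62 and Rel, an NF-kappaB subunit, fell by 0.58 on the log2 scale, a fall that, like that of Tirap, was not called under median-of-ratios scaling. None of the 7 was called with the H2-Ea term. Without CON 1, CON 2, MOD 2 or MOD 3 the count higher was 1, and the fall of Rel was lost without CON 1, MOD 1 or MOD 2. Of 7 inhibitors, 1 fell and none rose. Tollip, which binds the receptors' kinase IRAK1, ran from 31.2 to 37.9 TPM across CON and from 18.3 to 22.2 TPM across MOD (log2 difference -0.74, limma adjusted p = 0.0064), and was lower under median-of-ratios scaling too. Without MOD 3 the list had 2 genes lower.

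Of 13 known target genes, 9 were tested and 3 rose, with a median log2 difference of 0.72. Cxcl2, a neutrophil chemokine, was at most 0.31 TPM in a control and stood at 152, 9.35 and 33.1 TPM in MOD 1, MOD 2 and MOD 3. Ccl3 and Il1b had the same order, with MOD 1 highest and MOD 2 lowest, whereas Tlr7 was highest in MOD 2. Their log2 differences were 5.0, 3.68 and 3.54 (limma adjusted p = 0.0052, 0.0044 and 0.006). Cxcl2 and Ccl3 met the filter through MOD alone, which fixed their direction, and the count of 3 was 1 without any 1 MOD library. Il1b was not called once the H2-Ea term was added (3.43, limma adjusted p = 0.052). Tnf ran from 1.05 to 1.77 TPM across CON and from 1.39 to 3.77 TPM across MOD and was not called, and Ifnb1 was listed at 0 in all 6 libraries. Tlr11 and Tlr12, the remaining mouse receptors, were below the filter, with Tlr11 between 0.77 and 1.46 TPM across CON and 0.26 and 0.73 TPM across MOD, and Tlr12 between 0.02 and 0.38 TPM throughout.

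**Figure D5:**
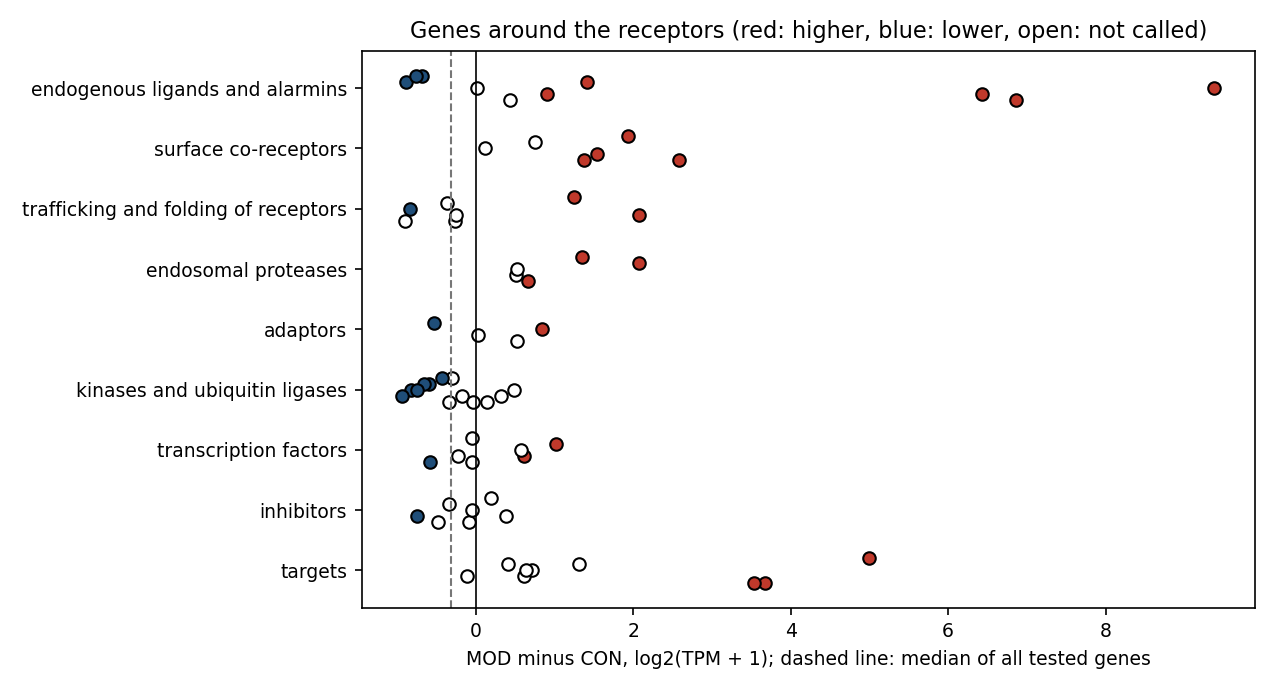
Log2(TPM + 1) difference, MOD minus CON, of each tested gene of the lists around the receptors, 1 row per list, with red points called higher, blue called lower and open points not called (limma adjusted p below 0.05). The dashed line is the median of all tested genes at -0.31; co-receptors lie to its right with 4 of 6 higher, and the 13 kinases and ubiquitin ligases lie around it.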

How the data were processed

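The authors deposited 1 table of TPM values for 57010 genes in 6 libraries, with gene lengths and annotation. The authors used GRCm39, per the submitters' processing notes. RNA was extracted with TRIzol and libraries made with a SMARTER mRNA-Seq kit, per the labels' protocols. The sources used here name no aligner, annotation or quantification tool. TPM is a share of a library, so abundant transcripts that rise push others down, and it keeps no depth, so no counting interval is given. Libraries are numbered as in the labels' titles, and CON 2 and CON 3 are the columns that the labels call CON3 and CON4.

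Values were tested as log2(TPM + 1) for the 15323 genes that reached 1 TPM in 3 or more libraries, in limma 3.58.1 under R 4.3.3 (two-sided, eBayes with a mean-variance trend, Benjamini-Hochberg over all tested genes, threshold 0.05). The log scale understates the change of low genes. The procedure was tested on simulated data. "Rose" and "fell" mark calls. In each list around the receptors, the 3 called genes with the largest difference are named, or the 2 most abundant where none was called, and others in counts of 5 or fewer. Tnf, Myd88 and Ifnb1, and the marker genes Csf3r, Ly6g, Cxcr2, Mmp8, Ms4a1, Siglech and Lhx2, were named after their values were seen. The same holds for Il1r2, Xist and Ddx3y. The members, the lists and the H2-Ea term were chosen with earlier results of these data known. Alternatives were 2 pseudocounts, other filters and scalings, the H2-Ea term, a replicate block and leaving out each library. The RefSeq promoter table (GRCm38.p6) and GENCODE M21 served only for sequences, chromosomes and shared stretches, and no coordinates were converted.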

Additional observations from a re-analysis of the deposited data

How the results depend on the processing

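Counts of receptor genes called higher depended on the filter, the scaling and the split among the controls. Instead of 5 of 10, limma called 3 without a filter on low values, 8 with median-of-ratios scaling, 8 with quantile normalization and 2 with the H2-Ea term. Of all tested genes, 12.5% were called higher in the main fit, 20.2% with median-of-ratios scaling and 4.35% with the H2-Ea term. That share was not counted for the other settings, the fits without 1 library and with a replicate block among them. With the H2-Ea term the differences of Tlr7, Tlr9 and Tlr2 were smaller, at 1.42, 0.52 and 0.98. Their SEs were larger, at 0.70, 0.35 and 0.30 instead of 0.53, 0.26 and 0.26. The cause of the changed counts was not tested for any setting. Leaving out 1 library at a time gave 4 to 6. No alternative called a receptor gene lower. The endosomal minus surface difference moved from 0.15 to -0.11 with the H2-Ea term to 0.31 with a pseudocount of 0.1, and lay between 0.03 and 0.28 on leaving out a library. The sign of Tlr3 turned from -0.03 to 0.25 with median-of-ratios scaling, 0.21 with quantile normalization and 0.10 without the 20 most abundant genes, and lay between -0.14 and 0.04 on leaving out a library, with no call in any of them. Over the 10 genes and 17 alternatives, 140 of the results kept sign and side of the threshold, 13 gained a call, 12 lost one and 5 changed sign, all 5 in Tlr3. Same-numbered libraries had r of 0.00, 0.07 and 0.07 between their deviations, and differently numbered ones had r from -0.10 to 0.04. With 3 libraries in a group these values cannot exclude a pairing, and the main fit did not use the numbers as pairs. A fit with the replicate number as a block called 7, gaining Tlr4, Tlr6 and Tlr8 and losing Tlr9 (limma adjusted p = 0.060). The low TPM of Tlr9 and Tlr13 in CON, at an unknown depth, limits how firmly their folds can be read.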
